A study of Mus musculus with 6 samples.

Results

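The 10 desmosome genes examined here, *Dsg1a*, *Dsg1b*, *Dsg2*, *Dsg3*, *Dsc1*, *Dsc2*, *Dsc3*, *Dsp*, *Jup* and *Pkp1*, were taken by gene symbol from a bulk RNA-seq count table of 55536 Ensembl genes. All 10 were among the 20622 genes with enough reads to test. RNA came from basal keratinocytes of mouse dorsal skin at E16.5, sorted by FACS for Epcam and α6 integrin, from 3 Ctrl and 3 TKO samples. In replicate order, the Ctrl samples were female, male and male, and the TKO samples male, female and male. Every embryo was *Suv39h2*-/- and carried floxed *Suv39h1* (*Suv39h1* f/f) and floxed *Setdb1* (*Setdb1* f/f), and all were exposed to tamoxifen. TKO embryos were K14CreERT2+ and Ctrl embryos K14CreERT2-, so that Ctrl too lacked *Suv39h2* and the comparison addresses the added loss of the other two H3K9 methyltransferases. The K14 promoter drives the tamoxifen-activated Cre in basal keratinocytes, and the study lists its bulk litters as mosaic for the knockout. The labels do not say whether same-group samples came from separate litters, so p-values measure only the spread between these samples. Counts per library totalled 102159175 to 136515436, and 3 counts, the limit that a count of 0 allows, correspond to 0.0232 to 0.0303 CPM (counts scaled to a common library size). These limits cover counting error only.

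Desmosomes rivet neighbouring epithelial cells together and anchor their keratin filaments. Their cadherins, the desmogleins and desmocollins, cross the membrane and bind partners on the next cell, while plakoglobin and plakophilins tie the cadherin tails to desmoplakin, which holds the keratins. In the epidermis the cadherins are layered, with *Dsg3* and *Dsc3* used most in the lower layers and desmoglein 1 and *Dsc1* added as cells leave the basal layer.

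No desmosome gene passed the test between TKO and Ctrl. The test was edgeR's quasi-likelihood test, with a call set at an adjusted p under 0.05 and a log2 fold change beyond 1 in either direction. It called 0 of the 10 genes, beside 0.131% of all tested genes (27 of 20622, all higher in TKO in this fit). At an unadjusted p under 0.05 it picked 1 of the 10 (*Dsc2*), beside 6.08% of all genes. That count was 0 with RLE size factors, a sex term or no robust estimation, and 4 with no low-count filter (beside 5.19% of all genes). Leaving out 1 library gave 2 without TKO replicate 3 (beside 10.3%) and 0 without Ctrl replicate 2, Ctrl replicate 3 or TKO replicate 2. Without Ctrl replicate 1 or TKO replicate 1 it was 1, with *Dsg1a* in place of *Dsc2*. DESeq2 also called 0 of the 10, beside 1.04% of all genes (214, of which 21 were lower in TKO). With the replicate number as a block, which raised the calls among all genes to 45 (0.218%), the count of desmosome genes called was again 0. Of the 10 log2 fold changes, 5 were above 0 and 5 below, with a median of 0.005 beside 0.013 over all tested genes. The signs of *Dsg3*, *Dsp* and *Jup* turned in some fits that left out 1 library. The 95% intervals of all 10 lay inside a change of 2-fold in either direction, except that the upper bound of *Dsc2* was 1.05 on the log2 scale.

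**Figure D1:**
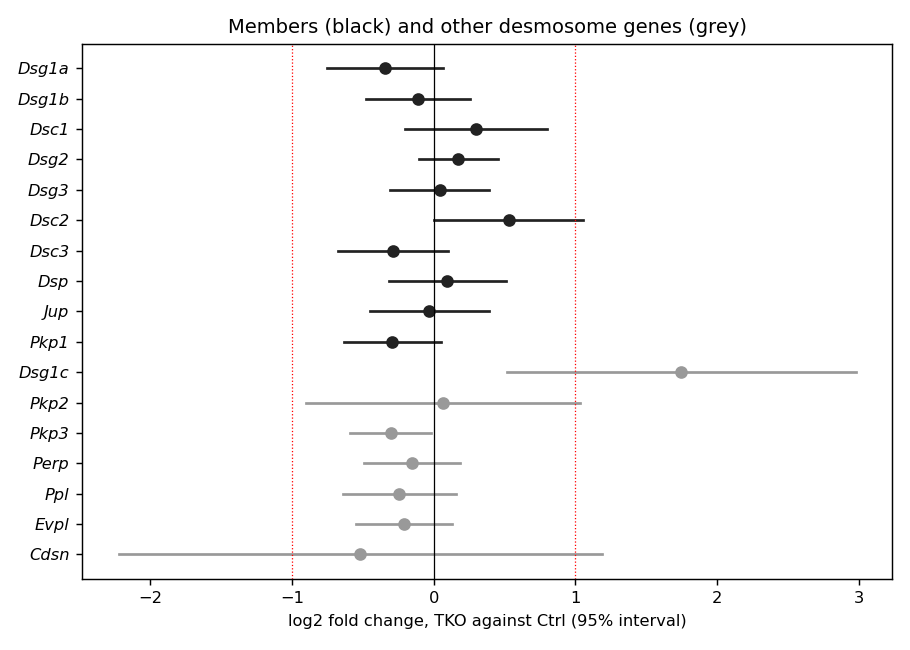
Log2 fold change of TKO against Ctrl (n = 3 each) from edgeR, with 95% intervals, for the 10 members (black) and 7 other desmosome genes (grey). Dotted lines mark log2 fold changes of -1 and 1. The members lie between -0.35 (*Dsg1a*) and 0.53 (*Dsc2*), and *Dsg1c* at 1.75 stands farthest from 0.

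The targeted genes served as a check of the labels. *Setdb1*, the methyltransferase deleted through floxed alleles, was measured at 125.5, 117.9 and 121 CPM in Ctrl and at 95.2, 62.3 and 74.8 CPM in TKO. Its groups did not overlap, but the log2 fold change of -0.65 did not pass the test (edgeR adjusted p = 0.286). *Suv39h1*, also floxed, was measured at 88.65, 78.47 and 84 CPM in Ctrl and at 75.55, 68.89 and 89.39 CPM in TKO. Its groups overlapped, with TKO replicate 3 above every Ctrl library, and its log2 fold change was -0.10. *Suv39h2*, deleted in both groups, had a log2 fold change of 0.11. Its Ctrl mean was 16.2 ± 0.784 CPM and its TKO mean 17.5 ± 1.46 CPM (SD, n = 3). These are counts over whole genes, so reads from exons outside the deleted parts are included. All 3 targets also overlap genes on the opposite strand, and the strand setting of the counting is not given in the sources used here.

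The levels of the 10 genes spanned a wide range that was ordered much alike in both groups. Values were divided by the exon length of each gene, giving CPM per kb, so that genes could be compared with each other. This length merges all annotated exons of a gene and can exceed that of the transcript expressed, so the order depends on it. Before the division, *Jup* had a higher Ctrl mean (1288 CPM) than *Dsc3* (999.1 CPM). In Ctrl, desmoplakin (*Dsp*) had the highest level, 382.1 CPM per kb, followed by plakophilin 1 (*Pkp1*) at 334, *Dsc3* at 184.2 and plakoglobin (*Jup*) at 145. The desmogleins *Dsg1a* (102.5 CPM per kb), *Dsg3* (39.99) and *Dsg1b* (35.43) came next, with *Dsc1* at 30.14. *Dsg2* at 8.89 and *Dsc2* at 2.09 CPM per kb, the pair best known from heart and simple epithelia, were lowest. Neighbours whose Ctrl libraries overlapped, and whose order is therefore not resolved, were *Dsp* and *Pkp1*, *Dsc3* and *Jup*, *Dsg3* and *Dsg1b*, and *Dsg1b* and *Dsc1*. The TKO means kept this order except that *Dsc1* (37.09) stood above *Dsg1b* (32.79). Together the 10 genes took 0.800% to 0.936% of the counts of each library, with summed levels of 8922 ± 615 CPM for Ctrl libraries and 8589 ± 420 CPM for TKO (SD, n = 3).

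**Figure D2:**
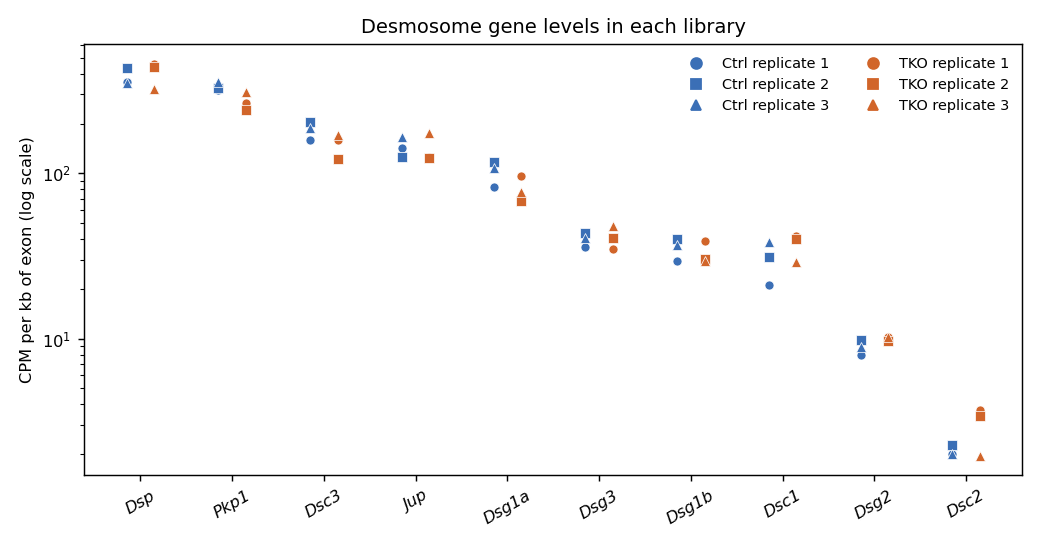
Level of each member in each library, in CPM per kb of exon on a log scale, ordered by the Ctrl mean. Blue marks are the 3 Ctrl and orange marks the 3 TKO libraries, with marker shape giving the replicate number. Levels run from about 2 CPM per kb for *Dsc2* to over 300 for *Dsp* and *Pkp1*.

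Among the suprabasal cadherins, *Dsg1a* had the lowest log2 fold change of the 10 genes. Desmoglein 1 is the cadherin bound by autoantibodies in pemphigus foliaceus, and the mouse carries it as several similar genes. *Dsg1a* was measured at 472.3, 664.8 and 611.1 CPM in Ctrl and at 548.3, 389.4 and 438.1 CPM in TKO. TKO replicates 2 and 3 lay below every Ctrl library while TKO replicate 1 lay inside the Ctrl range, and the log2 fold change of -0.35 (SE 0.18, 95% interval -0.76 to 0.06) did not pass (edgeR adjusted p = 0.924). *Dsg1b*, its neighbour, was measured at 116.8, 159.7 and 145.5 CPM in Ctrl and at 154, 119.6 and 116.9 CPM in TKO, and the groups overlapped fully. Its log2 fold change was -0.11 (95% interval -0.48 to 0.25). *Dsc1*, the desmocollin of the upper layers, was measured at 105.9, 157.3 and 193.1 CPM in Ctrl and at 212.1, 203.3 and 146.2 CPM in TKO. TKO replicates 1 and 2 exceeded every Ctrl library, but replicate 3 lay within them. The log2 fold change of *Dsc1* was 0.30 (95% interval -0.20 to 0.80), and leaving out 1 library moved it between 0.09 (without Ctrl replicate 1) and 0.51 (without Ctrl replicate 3).

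*Dsg1a* and *Dsg1b* can exchange reads. Their reference transcripts were 91.7% identical along the alignment, and 21.9% of the stretches of 100 bases in *Dsg1a* and 31.6% of those in *Dsg1b* occurred unaltered in the other. How reads that fit both genes were counted is not given in the sources used here, so the split between them is uncertain. *Dsg1a*, *Dsg1b*, *Dsg2*, *Dsg3* and *Dsp* also share 107 to 539 exon bases with annotated genes on the opposite strand, whose reads cannot be told apart from theirs without strand. With that limit, *Dsg1a* exceeded *Dsg1b* per kb by 2.82, 2.91 and 2.93-fold in Ctrl and by 2.49, 2.27 and 2.62-fold in TKO, a ratio singled out after its values were seen. The 3 TKO ratios lay below all 3 Ctrl ratios, and the difference of -0.23 on the log2 scale was not tested.

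Of the basal cadherins, *Dsc2* had the highest log2 fold change of the 10 genes and *Dsg3* the value nearest to 0 among these 4. *Dsg3*, the desmoglein targeted in pemphigus vulgaris, was measured at 251.3, 304.2 and 281.6 CPM in Ctrl and at 243.4, 285.1 and 332.8 CPM in TKO. The groups covered each other and the log2 fold change was 0.04 (95% interval -0.31 to 0.39). *Dsc3*, its desmocollin partner in the lower layers and the most abundant of the cadherins, was measured at 865, 1105 and 1027 CPM in Ctrl and at 862.4, 666.6 and 928.8 CPM in TKO. TKO replicate 2 lay well below the Ctrl range and TKO replicate 1 just under it, and the log2 fold change of -0.29 (95% interval -0.67 to 0.10) did not pass. Between libraries of the same number the log2 differences of *Dsc3* were -0.004, -0.729 and -0.145. *Dsg2*, the desmoglein of simple epithelia and heart, was measured at 76.8, 93.4 and 85.5 CPM in Ctrl and at 98.5, 92.2 and 97.8 CPM in TKO. TKO replicates 1 and 3 were above every Ctrl library, replicate 2 was just under the highest, and the log2 fold change was 0.17 (95% interval -0.11 to 0.45).

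*Dsc2* rested on which TKO library was looked at. It was measured at 10.9, 12.28 and 10.85 CPM in Ctrl and at 20.02, 18.44 and 10.64 CPM in TKO, from 1080 to 2357 counts per library. TKO replicates 1 and 2 were well above all of Ctrl, whereas TKO replicate 3 was below all of it. The log2 fold change was 0.53 (95% interval 0.004 to 1.05), with an unadjusted p of 0.0486 and an adjusted p of 0.814 (edgeR). Without TKO replicate 3 it was 0.76, with an adjusted p of 0.0939 (edgeR), still short of the threshold, and it was 0.35 without TKO replicate 1 and 0.43 without TKO replicate 2.

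**Figure D3:**
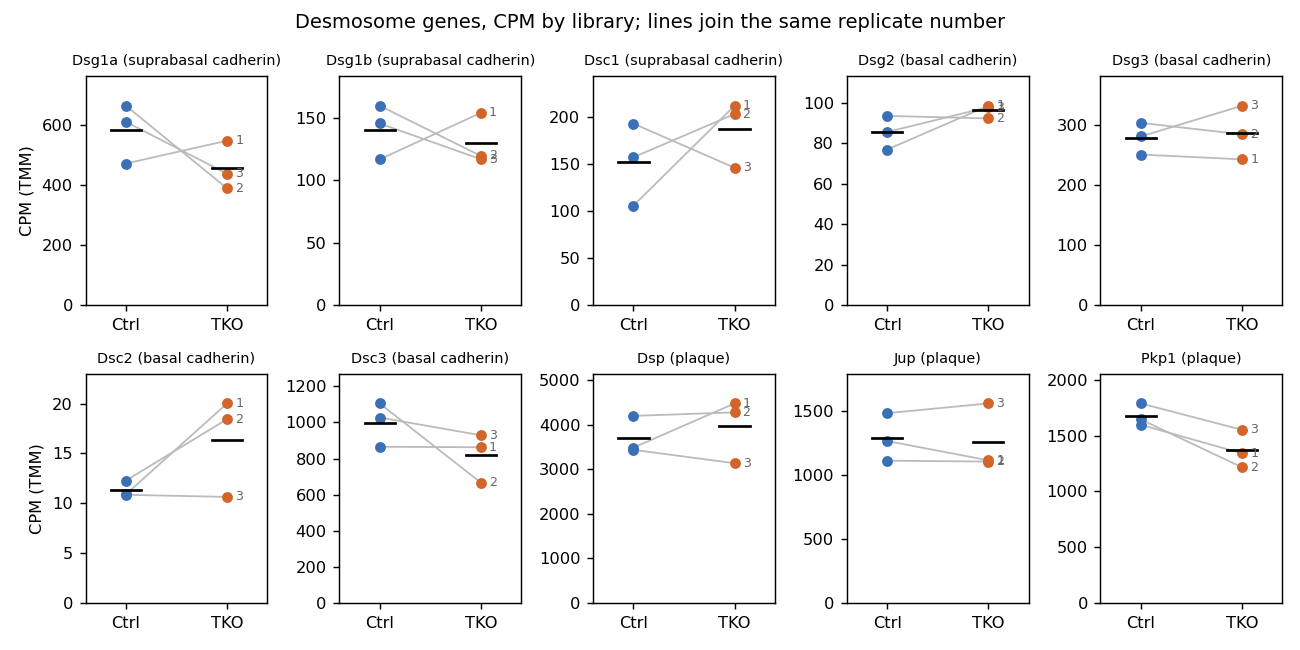
CPM of each member in each library, in 10 panels with axes that start at 0. Points are libraries, short bars are group means (n = 3), grey lines join Ctrl and TKO libraries of the same replicate number, and small digits give that number. *Pkp1* is the member whose groups do not overlap, and TKO replicate 3 lies with or below the Ctrl points for *Dsc1*, *Dsc2* and *Dsp*.

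Among the plaque genes, *Pkp1* was the only one of the 10 members whose groups did not overlap. Plakophilin 1 is the plakophilin of stratified epithelia, and its loss in people causes fragile skin. It was measured at 1598, 1646 and 1790 CPM in Ctrl and at 1342, 1217 and 1553 CPM in TKO. All TKO libraries were below all Ctrl libraries, which held for 1 of 10 members beside 5.11% of all tested genes, and 0 members lay wholly higher in TKO beside 6.35% of all genes. The log2 fold change of *Pkp1* was -0.29 (SE 0.15, 95% interval -0.64 to 0.05) and did not pass (edgeR adjusted p = 0.920). Between libraries of the same number the log2 differences were -0.252, -0.436 and -0.205. On CPM from total counts without TMM the groups of *Pkp1* overlapped and *Dsg2* was the member whose groups did not.

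*Dsp* encodes desmoplakin, the plakin that holds the keratin filaments. It was measured at 3484, 4197 and 3435 CPM in Ctrl and at 4476, 4276 and 3135 CPM in TKO. TKO replicate 3 was the lowest of the 6 libraries and TKO replicate 1 the highest, and the log2 fold change was 0.10 (95% interval -0.32 to 0.51). *Jup* encodes plakoglobin, an armadillo protein shared by desmosomes and adherens junctions. It was measured at 1267, 1113 and 1485 CPM in Ctrl and at 1116, 1106 and 1561 CPM in TKO, with Ctrl replicate 3 and TKO replicate 3 the highest. Its log2 fold change was -0.03 (95% interval -0.45 to 0.39). Across the 6 libraries *Dsp* and *Jup* ran opposite to each other (Pearson r = -0.94 of log2 CPM), a description over libraries that share the same scaling. Among all pairs of members this was the value farthest from 0. *Dsp* over *Jup*, per kb, was 2.52, 3.45 and 2.12-fold in Ctrl and 3.68, 3.54 and 1.84-fold in TKO, so replicate 3 of each group had the lowest ratio. *Dsp* was annotated at chr13:38335230-38382553, *Jup* at chr11:100259784-100291103 and *Pkp1* at chr1:135799133-135846945 (GENCODE vM39, GRCm39).

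The promoters of *Jup* and *Dsp* are shown because these 2 of the 10 genes had a window in the RefSeq promoter table used (GRCm38.p6). Each is the 250 bases before the start on the gene's own strand, for *Jup* chr11:100397791-100398040 on the minus strand and for *Dsp* chr13:38151044-38151293 on the plus strand. Capitals mark matches, on either strand, to the GC box letters GGGCGG and the CCAAT box letters CCAAT.
Jup: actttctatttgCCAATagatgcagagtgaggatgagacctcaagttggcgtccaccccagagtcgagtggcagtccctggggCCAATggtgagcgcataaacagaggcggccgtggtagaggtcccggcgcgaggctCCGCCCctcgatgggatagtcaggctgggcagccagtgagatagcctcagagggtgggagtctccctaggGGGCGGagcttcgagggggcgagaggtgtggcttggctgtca
Dsp: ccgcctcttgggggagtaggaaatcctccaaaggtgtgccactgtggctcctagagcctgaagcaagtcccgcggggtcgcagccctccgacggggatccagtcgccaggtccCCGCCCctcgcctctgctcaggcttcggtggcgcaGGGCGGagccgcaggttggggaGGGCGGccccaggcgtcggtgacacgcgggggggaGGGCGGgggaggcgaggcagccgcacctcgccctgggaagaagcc

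The *Jup* window held 2 GC boxes and 2 CCAAT boxes, and the *Dsp* window 4 GC boxes and 0 CCAAT boxes. GGGCGG occurred in 33.0% and CCAAT in 33.8% of the 32536 windows of this length. Neither window held TATAAA (12.3% of windows), the AP-1 letters TGACTCA (4.45%) or the grainyhead letters AACCGGTT (0.117%). G and C made up 62.0% of the *Jup* window and 72.4% of the *Dsp* window, beside a median of 52.4%. A match is a description of letters and not evidence of binding.

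Within a library, the ratio of suprabasal to basal cadherins differed between groups by less than the spread between replicates. The summed level per kb of *Dsg1a*, *Dsg1b* and *Dsc1* over that of *Dsg2*, *Dsg3*, *Dsc2* and *Dsc3* was -0.495 ± 0.115 in Ctrl and -0.449 ± 0.284 in TKO (log2, SD, n = 3). The difference of 0.045 was smaller than either SD, and it ranged from -0.0645 to 0.206 on leaving out 1 library. Reads exchanged between *Dsg1a* and *Dsg1b* would stay within the suprabasal sum, apart from the different lengths of these genes. Without both genes the difference was 0.522, set by *Dsc1* alone over the basal cadherins. *Dsc1* over *Dsc3* was 0.132, 0.153 and 0.202-fold in Ctrl and 0.264, 0.328 and 0.169-fold in TKO, with TKO replicate 3 inside the Ctrl range. *Dsg1a* and *Dsg1b* together over *Dsg3* were 3.12, 3.60 and 3.57-fold in Ctrl and 3.88, 2.41 and 2.23-fold in TKO, where TKO replicate 1 was above and the other two below all of Ctrl. Desmogleins over desmocollins had a log2 mean of -0.214 in both groups. *Dsg2* took 0.691%, 0.731% and 0.685% of the summed level per kb of the 10 genes in Ctrl and 0.828%, 0.856% and 0.868% in TKO, a share picked out after its values were seen and not tested.

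**Figure D4:**
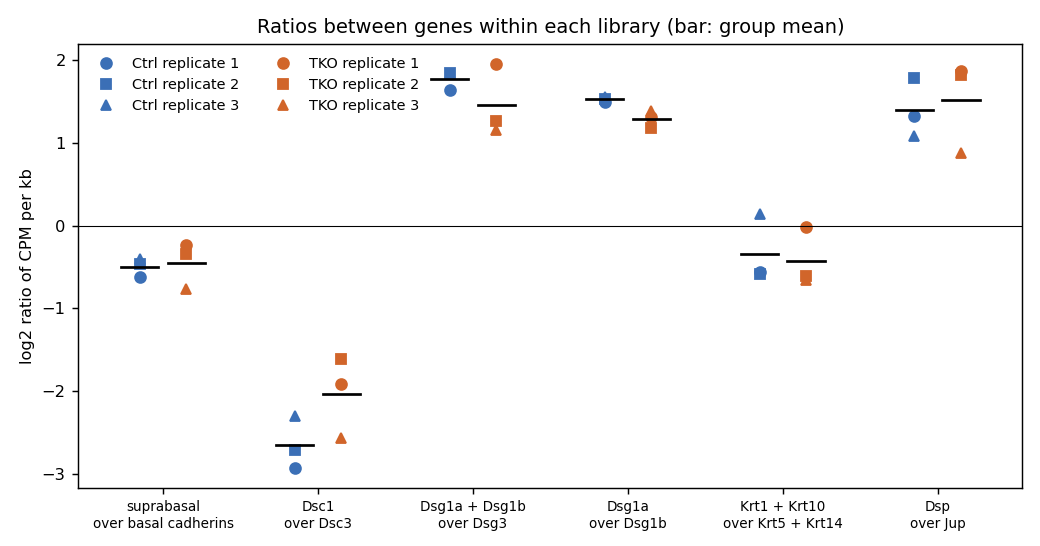
Log2 ratios of CPM per kb within each library, blue for Ctrl and orange for TKO, with marker shape giving the replicate number and bars the group means (n = 3). The suprabasal over basal cadherin ratio differs by 0.045 between group means, and *Dsg1a* over *Dsg1b* is the ratio shown whose groups do not overlap.

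The 7 cadherin members lie side by side on chromosome 18, from *Dsc3* to *Dsg2* in a span of 643.6 kb (GRCm39). The span holds 18 annotated genes, 11 of them in the count table, in the order *Dsc3*, *Dsc2*, *Dsc1*, *Dsg1c*, *Dsg1a*, *Dsg1b*, *Dsg4*, *Gm5688*, *Dsg3*, *Tpi-rs10* and *Dsg2*. The desmocollins are on the minus strand and the desmogleins on the plus strand. *Dsc3* spans positions 20093987 to 20135408, *Dsc2* 20163675 to 20192717, *Dsc1* 20217241 to 20247928 and *Dsg1a* 20443868 to 20476407. *Dsg1b* spans 20509781 to 20543253, *Dsg3* 20643331 to 20680516 and *Dsg2* 20691074 to 20737581. The log2 fold changes along the cluster were of both signs, running -0.29 (*Dsc3*), 0.53 (*Dsc2*), 0.30 (*Dsc1*), 1.75 (*Dsg1c*), -0.35 (*Dsg1a*), -0.11 (*Dsg1b*), 0.04 (*Dsg3*) and 0.17 (*Dsg2*). The pseudogenes *Gm5688* and *Tpi-rs10* had 0 counts in all libraries. *Dsg4*, the desmoglein of the hair shaft, had 5, 3 and 20 counts in Ctrl and 0, 0 and 4 in TKO and was too low to test.

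*Dsg1c*, another mouse desmoglein 1 gene, had the highest log2 fold change of the desmosome genes, at a very low level. It was measured at 0.151, 0.163 and 0.213 CPM in Ctrl (15 to 23 counts) and at 0.646, 0.769 and 0.362 CPM in TKO (44 to 85 counts). All TKO libraries were above all Ctrl libraries, and the log2 fold change of 1.75 (95% interval 0.51 to 2.98) did not pass (edgeR adjusted p = 0.526). *Dsg1c* shared 12.7% of its 100-base stretches with *Dsg1a*, a gene with far more reads, and the part of misplaced reads in its counts was not tested.

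The other desmosome genes, a list of 8 with 7 tested, gave 0 calls, with 2 log2 fold changes above 0 and 5 below and a median of -0.212. *Pkp3*, a plakophilin found in all layers, was measured at 355.7, 334.7 and 316.9 CPM in Ctrl and at 267.1, 284.7 and 264.3 CPM in TKO. Its groups did not overlap, as with *Pkp1*, and the log2 fold change of -0.30 had an unadjusted p of 0.0398 and an adjusted p of 0.786 (edgeR). *Pkp1* over *Pkp3* differed by 0.005 on the log2 scale between groups. *Perp*, a tetraspan protein of desmosomes, had a log2 fold change of -0.15. The plakins *Ppl* and *Evpl*, which also build the cornified envelope, had -0.24 and -0.21. *Pkp2*, the plakophilin of heart and simple epithelia, had 0.06 at about 2 CPM, and *Cdsn*, the corneodesmosin of the horny layer, -0.52 at under 1 CPM in most libraries. Their summed level was 2699 ± 89.4 CPM across Ctrl libraries and 2359 ± 83.6 CPM across TKO libraries (SD, n = 3), with groups that did not overlap.

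The junctions next to the desmosome were read from lists of the same kind. Of 12 adherens junction genes 0 were called, 0 had an unadjusted p under 0.05 and 0 had groups that did not overlap. Log2 fold changes were above 0 for 11 of the 12, beside 10706 of the 20622 tested genes. They ran from -0.03 (*Nectin2*) to 0.31 (*Nectin1*), with a median of 0.10. *Cdh1*, the classical cadherin of all layers, had 0.01. Of 12 tight junction genes 0 were called, while 2 were higher and 3 lower in TKO at an unadjusted p under 0.05, beside 6.08% of all genes. The highest was *Cldn4* at 0.45. The lower ones were *Ocln*, encoding occludin, at -0.62 (edgeR adjusted p = 0.421), *Marveld2*, encoding tricellulin, at -0.61 and *Cldn1*, the barrier claudin, at -0.50. The lowest value was -0.76 for *Cldn7*, at about 1 CPM.

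Enzymes that cut corneodesmosomes and their inhibitor were at low levels, apart from *Ctsl*. Of 5 genes 4 were tested and 0 called, from -1.44 (*Klk7*, under 1.2 CPM in every library) to 0.004 (*Spink5*, an inhibitor of these proteases). *Ctsl*, a lysosomal cathepsin, had -0.43 (edgeR adjusted p = 0.736). Of 9 epidermal regulators 0 were called, with values from -0.30 (*Ovol1*) to 0.09 (*Prkca*). *Trp63*, the transcription factor that keeps epithelial identity, had 0.08, and *Grhl1*, a grainyhead factor, had -0.11.

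**Figure D5:**
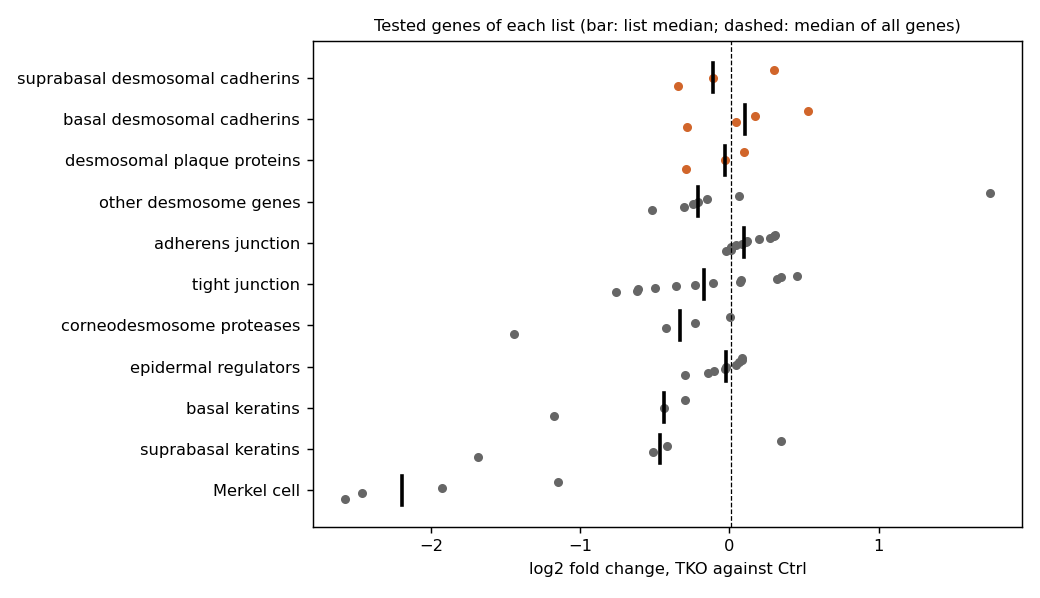
Log2 fold change of TKO against Ctrl for each tested gene of each list, members in orange and other genes in grey. Thick bars are list medians and the dashed line is the median of all tested genes, 0.013. The member lists have medians between -0.11 and 0.11, and the 4 Merkel cell genes all lie below -1.

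Of the keratins, to which desmosomes attach, all 3 basal and 3 of 4 suprabasal genes had log2 fold changes below 0. The same held for 9916 of the 20622 tested genes. *Krt15*, a basal keratin, was measured at 2715, 2578 and 2089 CPM in Ctrl and at 900.5, 791.6 and 1572 CPM in TKO, a log2 fold change of -1.18 (edgeR adjusted p = 0.185). *Krt5* and *Krt14*, the main basal pair, had -0.44 and -0.30. *Krt1* and *Krt10*, the pair of differentiating cells, had -0.51 and -0.42. The groups of *Krt15*, *Krt1* and *Krt10* did not overlap, beside 5.11% of all tested genes that were wholly lower in TKO. None of the 7 keratins listed was called, the lowest being *Krt2* at -1.68 (under 3 CPM) and the highest *Krt77* at 0.34. The difference between keratins and desmosome genes was not tested.

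Markers of cell types were read beside these values. Basal markers were abundant in every library, with *Krt5* the highest at 10840 CPM in Ctrl and *Itga6* and *Epcam*, the genes of the sort, at 519.6 and 79.2 CPM. *Krt1* and *Krt10* were abundant as well, at 9937 and 8469 CPM in Ctrl, although the cells are labelled basal. Summed over 8 markers, of which 0 were called, differentiating keratinocyte markers reached 18740, 18370 and 20210 CPM in the Ctrl libraries and 16400, 12450 and 13140 CPM in the TKO libraries, with groups that did not overlap. Nearly all of this sum was *Krt1* and *Krt10*, and of the 8 log2 fold changes 3 were above 0 and 5 below, with a median of -0.04. The 7 basal markers summed to 19710 ± 3203 and 15930 ± 1768 CPM in Ctrl and TKO (SD, n = 3), and overlapped. *Flg*, a defining marker of the granular layer, was at 0.329 CPM or less. *Ivl* and *Loricrin*, of the same list, were higher, at 0.723 to 4.03 and 1.94 to 11.4 CPM over the libraries of both groups. The log2 fold changes ran from -0.51 (*Krt1*) to 0.49 (*Loricrin*) for differentiating and from -0.44 (*Krt5*) to 0.24 (*Itgb4*) for basal markers. In bulk samples fewer cells of a type and less RNA per cell cannot be told apart.

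Merkel cell markers were scarce in both groups, summing to 7.53 ± 0.705 CPM for Ctrl and 2.17 ± 0.593 CPM for TKO (SD, n = 3). All 4 tested of 5 were below Ctrl in every library, beside 5.11% of all tested genes, and 0 were called (lowest edgeR adjusted p = 0.113, for *Krt8*). Their log2 fold changes were -2.57 (*Isl1*), -2.46 (*Atoh1*), -1.92 (*Krt8*, the most abundant) and -1.15 (*Krt18*). Fibroblast markers summed to 1705, 4300 and 3549 CPM in Ctrl and 2819, 2926 and 3233 CPM in TKO, with *Col1a1* the most abundant, and Ctrl replicate 1 was lowest. Endothelial markers (top gene *Cdh5*) summed to 29.3 ± 5.76 and 45.8 ± 19.4 CPM, immune cell markers (*Csf1r*) to 24.6 ± 14.8 and 31.8 ± 34.9 CPM, and skeletal muscle markers (*Acta1*) to 2.51 ± 0.731 and 6.13 ± 3.52 CPM in Ctrl and TKO. Hair follicle markers (*Lgr6*) summed to 439.8 ± 56.9 and 485.5 ± 141 CPM and melanocyte markers (*Mitf*) to 10.8 ± 3.68 and 13.3 ± 1.99 CPM. Log2 fold changes ran from -0.46 (*Postn*) to 0.03 (*Col1a1*) for fibroblast, 0.37 (*Pecam1*) to 0.91 (*Cdh5*) for endothelial, 0.13 (*Csf1r*) to 0.67 (*Cd74*) for immune and 0.45 (*Ckm*) to 2.12 (*Acta1*) for skeletal muscle markers. They ran from -0.03 (*Sox9*) to 0.45 (*Shh*) for hair follicle and -1.21 (*Tyrp1*) to 0.63 (*Sox10*) for melanocyte markers. No marker of these lists was called. The part of other cells in the desmosome values was not tested.

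Library by library, the members fell into a few patterns. *Dsg1a* ran with *Dsg1b* (r = 0.89) and with *Dsc3* (0.86), and *Dsc3* with *Pkp1* (0.87). *Dsc2* ran with *Dsp* (0.86) and against *Pkp1* (-0.87). These are correlations of log2 CPM over 6 libraries that include both groups, given as descriptions. Among 9026 other protein-coding genes of at least 10 CPM, those most like the summed suprabasal cadherins were *Glyr1* (r = 0.981), *Gjb6*, *Ric3*, *Mier1* and *Setdb2*. Most like the summed basal cadherins were *Tsr2* (0.995), *Wdr41*, *Otud7b*, *Zfp84* and *Fbxo9*. Most like the summed plaque genes were *Sptlc3* (0.995), *Rasa2*, *Guf1*, *Bltp1* and *Ghr*. These are the highest of 9026 values over 6 libraries, given as descriptions and not tested. The sums were led by *Dsg1a* (582.7 of 875.5 CPM in Ctrl), *Dsc3* (999.1 of 1375) and *Dsp* (3706 of 6672).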

How the data were processed

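The authors sorted Epcam+ α6+ cells, depleted rRNA, prepared NEBNext Ultra II libraries, trimmed paired reads with fastp and aligned them with STAR. They deposited a table of raw read counts by Ensembl identifier, 1 column per library, neither normalized nor pooled. The submitters' processing notes name GRCm38 and the study's methods GRCm39. The counting program, annotation and strand setting are not given in the sources used here. Symbols, positions and exon lengths came from GENCODE vM39 (GRCm39), which matched 51477 of 55536 identifiers, and positions were not used to recount reads. Matched genes held 86.4% to 94.1% of each library's counts.

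Genes were kept by filterByExpr (minimum count 10, minimum total 15), scaled by TMM and tested across all genes with edgeR 4.0.16 (quasi-likelihood test, Benjamini-Hochberg adjustment) in R 4.3.3. DESeq2 1.42.0 was an alternative. Correlations used log2 CPM. The scripts were tested on simulated data. The count of genes with non-overlapping groups compares CPM of all 3 against all 3 libraries.

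Values named are those of all members and targets, all other desmosome genes, genes inside the cadherin cluster, and for each other list its counts, its highest and lowest log2 fold change and genes past an unadjusted threshold. *Cdh1*, *Trp63*, *Grhl1*, *Krt5*, *Krt14*, *Itga6*, *Epcam*, *Flg* and *Ivl* were added after their values were seen. The values of 1 listed gene past an unadjusted threshold are not reported here. Members and lists were chosen with earlier results of these data known. Libraries of the same replicate number deviated together from their group means (correlations 0.187 to 0.272 for 3 pairs, against -0.243 to 0.019 for 6 pairs of different number), so the numbers were taken to pair the samples. This pairing comes from the data, not from the labels, and libraries of the same number were not always of the same sex. The study describes its controls, unless noted, as littermates without Cre, but the labels do not tie replicate numbers to litters. Alternatives were other scalings, filters and tests, the block, a sex term and leaving out each library. The other data types of the study were not analysed here.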

Additional observations from a re-analysis of the deposited data

How the results depend on the processing

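The count of desmosome genes called was 0 under every alternative run. Among all tested genes, 27 were called, against 214 with DESeq2, 235 with no low-count filter, 9 with at least 10 counts in every library and 45 with the replicate block. Leaving out 1 library gave 7 (without Ctrl replicate 2) to 81 calls (without TKO replicate 3), with 8 without Ctrl replicate 1, 8 without Ctrl replicate 3 and 15 without TKO replicate 2. Calls lower in TKO numbered 21 with DESeq2, 22 with no low-count filter, 1 with the block and 16 without TKO replicate 3, and 0 in the other settings run. With the block, 0 members were called, as without it. The cadherin ratio difference cannot move with the block, since every number has both a Ctrl and a TKO library.

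Of 130 alternative fits of single members, 124 kept the direction, 0 passed the threshold and 6 reversed, all by leaving out a library. These were *Dsg3* (-0.0306 without Ctrl replicate 1 and -0.0795 without TKO replicate 3, range -0.0795 to 0.140), *Dsp* (-0.0101 without TKO replicate 1, range -0.0101 to 0.239) and *Jup* (0.0819 without Ctrl replicate 3, 0.0453 without TKO replicate 1 and 0.0538 without TKO replicate 2, range -0.214 to 0.0819). The lowest adjusted p was 0.0939, for *Dsc2* without TKO replicate 3 (edgeR), beside a range up to 1 over its alternatives. Leaving out a library also moved *Dsg1a* from -0.50 to -0.24, *Dsg1b* from -0.26 to -0.01, *Dsc1* from 0.09 to 0.51, *Dsg2* from 0.10 to 0.24, *Dsc2* from 0.35 to 0.76, *Dsc3* from -0.39 to -0.16 and *Pkp1* from -0.39 to -0.21.

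Members with non-overlapping groups numbered 1 to 5 on leaving out 1 library. The 5 without TKO replicate 3 were *Dsc1*, *Dsc2*, *Dsc3*, *Dsp* and *Pkp1*, where 28.8% of all genes did not overlap, and the 3 without Ctrl replicate 1 were *Dsg1a*, *Dsc3* and *Pkp1* (17.9%). There were 2 without Ctrl replicate 2 (21.2%), TKO replicate 1 (20.2%) or TKO replicate 2 (16.9%), and 1 without Ctrl replicate 3 (24.0%). CPM on total counts gave *Dsg2* in place of *Pkp1*. The cadherin ratio difference of 0.045 ranged from -0.0645 to 0.206 on leaving out a library and was 0.522 without *Dsg1a* and *Dsg1b*. The cause of these shifts was not tested. The lowest count of a member in a library was 1080.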
